A study of Mus musculus with 100 samples.

Results

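The loci of 10 genes that restrain or report ERK signalling were described from chromatin immunoprecipitation sequencing (ChIP-seq) of mouse cells: the MAP kinase phosphatase genes Dusp1, Dusp2, Dusp4, Dusp5 and Dusp6, the RAS pathway inhibitor genes Spry2 and Spred1, and the immediate early genes Egr1, Egr2 and Ier3. They were chosen by name, as 10 of the 18524 genes listed as the nearest gene of at least 1 region, and every region listed for them was used. The regions numbered 74 of 27931 in the table of ERK1 binding with and without KLA, 155 of 57573 in the NCoR table and 137 of 53474 in the PGC1β table that hold the ERK inhibitor, and 36 to 174 in each of the other 12 tables. A region is assigned by the deposited tables to the gene with the nearest transcription start site (TSS), which need not be the gene it acts on. Values are tags per 10 M tags of the library, and distances are in kb from the TSS, negative where upstream.

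Bone marrow-derived macrophages (BMDMs) of wild-type C57BL/6 mice were treated with vehicle (Veh) or for 6 h with KLA (Kdo2 lipid A), which activates TLR4, and binding was profiled for ERK1 itself, for PU.1, which defines the myeloid lineage, for p65 of NFκB and Fosl2 of the AP-1 family, for the corepressor NCoR with its deacetylase HDAC3, and for PGC1β and p300, which act as coactivators. For p300 the Veh group is KLA at 0 h. The ERK inhibitor (ERKi), named in the study's methods as LY3214996, was given before KLA in the group ERKi_KLA, with KLA alone as control for NCoR and with the solvent DMSO and KLA (DMSO_KLA) for PGC1β. H3K27ac, the acetylated form of lysine 27 of histone H3 found at regulatory DNA in use, was measured in WT cells with DMSO_Veh, DMSO_KLA and the HDAC3 inhibitor RGFP966 with KLA, in NCoR flox/flox cells without (WT) and with LysMCre (NKO), and in Pgc1b flox/flox cells without and with LysMCre, each with Veh and KLA. The LysM promoter drives Cre in the myeloid lineage, and loss of the floxed parts was not checked here. Wild-type bone marrow cells at day 0 and day 4 of osteoclast differentiation were profiled for ERK1 and p300. All groups have 2 libraries, and where only their number tells them apart p-values measure the spread between these libraries.

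ERK is switched on by phosphorylation and in turn induces its own inhibitors. The dual-specificity phosphatases remove the activating phosphates: DUSP1, DUSP2, DUSP4 and DUSP5 work in the nucleus, DUSP6 in the cytoplasm, and DUSP5 and DUSP6 prefer ERK. Sprouty and Spred proteins act upstream, on RAS and RAF. Egr1 and Egr2 encode zinc finger factors and are induced within minutes through serum response factor and its ETS partners, which ERK phosphorylates. Ier3 encodes a stress response protein. In macrophages TLR4 reaches ERK through the kinase TPL2, and Dusp1 is a well-known brake on inflammatory cytokine production.

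Library totals ran from 4.30 to 21.5 M tags and the tables' regions held 2.79 to 52.8% of them. All 8 macrophage markers had regions in every table. The 4 fibroblast markers had none in the ERK1 KLA, NCoR ERKi and RGFP966 tables. Some of them had regions for PGC1β, p300 and p65. Lists of other cells had regions too. For ERK1 with KLA these were 1 of 4 B cell, 2 of 4 T cell, 1 of 4 neutrophil and 6 of 8 osteoclast markers. For NCoR with ERKi they were 2, 4, 2 and 7 in turn, and with RGFP966 0, 0, 1 and 6. The marker lists thus do not settle which cells were present. The share of tags in regions was 14.97 to 15.8% in the NCoR ERKi_KLA libraries against 33.3 to 34.2% with KLA alone, 34.1 to 37.1% against 12.7 to 14.4% for p65 with KLA and Veh, and 9.53 to 9.61% against 3.08 to 3.16% for p300 at day 4 and day 0. Scaling by the regions themselves (TMM) in place of library totals therefore moved the median log2 fold change of all regions by -1.61 to 1.16, by over 0.1 in 22 of 25 comparisons, and values under both scalings are given where a call turns on it. With TMM scaling the share of all regions called is given for ERK1 with KLA, NCoR with the inhibitor and H3K27ac with RGFP966. In the other comparisons the TMM counts stand without such a share and are not to be set against shares by library totals. In bulk chromatin, a smaller number of responding cells and less binding per cell cannot be told apart.

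Sequences are shown for ERK1 peaks that the results turn on, with letters of mm10 on the plus strand. The first 3 peaks had few or no ERK1 tags with Veh and gained binding with KLA. They lie upstream of Spred1 (chr2:117080398-117080676, -40.53 kb), Dusp2 (chr2:127323088-127323297, -12.97 kb) and Egr2 (chr10:67524102-67524310, -13.66 kb), all intergenic. Capitals mark matches to the AP-1 motif TGANTCA on either strand and, in the Spred1 peak, also to the NFκB motif. Of the 11 ERK1 peaks called higher with KLA, 5 hold an AP-1 match within 150 bp of the centre. These 3 peaks thus do not stand for the rest.
Spred1 -40.53 kb: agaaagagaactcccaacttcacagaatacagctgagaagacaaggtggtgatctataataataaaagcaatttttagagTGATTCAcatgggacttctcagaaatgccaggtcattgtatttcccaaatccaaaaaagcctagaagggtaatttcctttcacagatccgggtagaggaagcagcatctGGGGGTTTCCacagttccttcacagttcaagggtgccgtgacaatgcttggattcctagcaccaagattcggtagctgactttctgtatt
Dusp2 -12.97 kb: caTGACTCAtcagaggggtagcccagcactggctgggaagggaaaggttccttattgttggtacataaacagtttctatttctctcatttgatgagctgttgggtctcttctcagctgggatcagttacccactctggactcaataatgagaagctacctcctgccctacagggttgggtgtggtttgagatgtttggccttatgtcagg
Egr2 -13.66 kb: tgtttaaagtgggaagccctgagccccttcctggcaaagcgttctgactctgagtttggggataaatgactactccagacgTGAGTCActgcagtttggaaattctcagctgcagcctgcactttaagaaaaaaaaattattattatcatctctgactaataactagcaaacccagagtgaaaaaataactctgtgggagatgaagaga

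The next 2 lie at Dusp1 and show the contrast within that locus. The peak just past the end of the gene (chr17:26504750-26505032, +3.58 kb) had the lowest adjusted p for a gain of ERK1 of the phosphatase genes and holds none of the 6 motifs searched. The far upstream peak (chr17:26533869-26534121, -25.52 kb, intergenic) had the most ERK1 tags, did not change and holds 2 AP-1 matches, in capitals.
Dusp1 +3.58 kb: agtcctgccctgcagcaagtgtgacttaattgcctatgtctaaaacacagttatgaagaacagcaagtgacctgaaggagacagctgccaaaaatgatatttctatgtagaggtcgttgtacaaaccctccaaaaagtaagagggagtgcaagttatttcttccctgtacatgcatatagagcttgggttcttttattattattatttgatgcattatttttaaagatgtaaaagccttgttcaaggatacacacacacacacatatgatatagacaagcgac
Dusp1 -25.52 kb: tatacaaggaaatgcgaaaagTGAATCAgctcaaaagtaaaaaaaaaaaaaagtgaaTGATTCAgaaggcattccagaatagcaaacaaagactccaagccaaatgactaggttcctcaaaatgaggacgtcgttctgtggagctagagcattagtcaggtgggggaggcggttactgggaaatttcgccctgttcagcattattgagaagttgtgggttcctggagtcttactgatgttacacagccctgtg

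Of the 10 genes, 8 had a RefSeq promoter in the table used (GRCm38.p6, 250 bases before to 50 after the TSS), and 2 are shown, 5′ to 3′ on the gene's strand, as the promoters under an ERK1 peak that hold a cyclic AMP response element or a CArG box. ERK1 peaks also lay over the promoters of Dusp2, Dusp6 and Spred1, which hold neither, while Egr2 promoters hold CArG boxes but had no ERK1 peak. The promoter of Dusp1 (chr17:26508423-26508722, minus strand) holds the cyclic AMP response element TGACGTCA, found in 1.79% of 32817 promoters. The promoter of Dusp5 (chr19:53528895-53529194, plus strand) holds 2 abutting CArG boxes, the serum response factor motif. At least 1 such box was found in 1.63% of promoters, and how many hold 2 abutting boxes was not counted.
Dusp1 promoter: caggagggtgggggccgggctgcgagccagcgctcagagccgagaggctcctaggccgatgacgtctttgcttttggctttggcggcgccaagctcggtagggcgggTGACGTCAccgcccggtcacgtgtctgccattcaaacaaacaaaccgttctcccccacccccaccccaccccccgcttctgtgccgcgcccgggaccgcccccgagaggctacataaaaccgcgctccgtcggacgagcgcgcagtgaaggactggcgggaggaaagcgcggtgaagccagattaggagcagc
Dusp5 promoter: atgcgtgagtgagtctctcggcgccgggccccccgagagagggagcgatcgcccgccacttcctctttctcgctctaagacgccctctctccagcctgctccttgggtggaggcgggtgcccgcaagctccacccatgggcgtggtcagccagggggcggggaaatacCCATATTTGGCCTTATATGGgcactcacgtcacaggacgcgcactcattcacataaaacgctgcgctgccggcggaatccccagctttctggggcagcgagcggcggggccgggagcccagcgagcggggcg

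ERK1 binding was gained at a subset of sites near Dusp1, Dusp2, Dusp6, Spred1 and Egr2 after KLA, while the strongest ERK1 peak of each of the 10 genes did not pass the test. Of 74 ERK1 peaks, 11 (14.9%) were higher with KLA and 1 (1.35%) was lower by the quasi-likelihood F-test of edgeR (adjusted p under 0.05 over all 27931 peaks and more than 2-fold), against 10.3% and 2.53% of all ERK1 peaks. The median log2 fold change was 0.46 for the 74 peaks and 0.26 for all. With TMM scaling the calls were 7 higher and 1 lower, against 8.11% and 3.93% of all peaks. The members' shares are thus near the background, and the results below concern single sites.

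**Figure D1:**
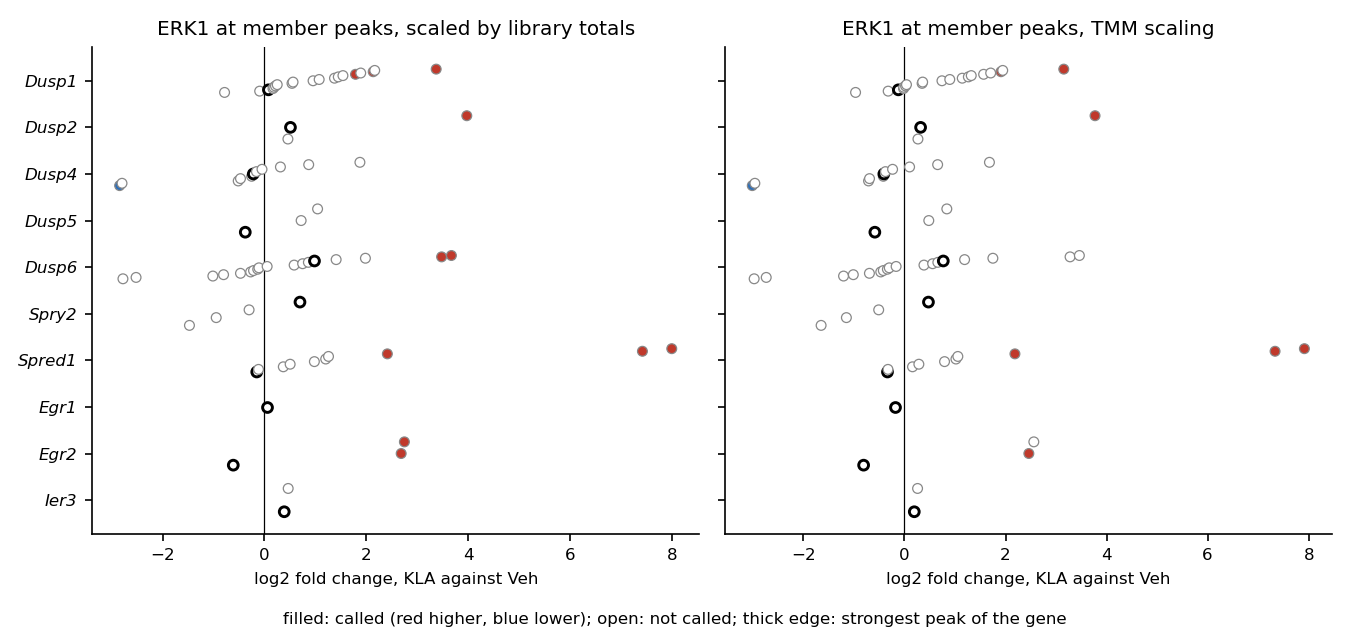
Log2 fold change of ERK1 binding, KLA against Veh, for all 74 peaks of the 10 genes (x axis), with library totals at the left and TMM scaling at the right. Each point is 1 peak, filled red or blue where called higher or lower, and a thick edge marks the peak with the most tags of each gene; called peaks lie apart from those strongest peaks, and the 2 Spred1 points farthest to the right had 0 tags with Veh, so their place depends on the prior count of the fit.

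Dusp1, which encodes the inducible nuclear phosphatase of ERK, p38 and JNK, had the most ERK1 peaks, 19. Its tags summed over them were 688 and 660 with Veh and 1205 and 1041 with KLA, and 17 of the 19 log2 fold changes were above 0 (14 with TMM scaling). At +3.58 kb, beside the transcription termination site, ERK1 tags were 4.72 and 9.25 with Veh and 91.0 and 61.2 with KLA, a log2 fold change of 3.37 (SE 0.58, adjusted p = 0.00854). That gain was called in 4 of 4 fits that each left out 1 library. The peak at +2.51 kb (chr17:26505783-26506142), annotated to the 3′ UTR, had 11.0 and 23.1 tags with Veh and 93.4 and 61.2 with KLA, a log2 fold change of 2.14 (SE 0.51, adjusted p = 0.0219). At -4.15 kb (chr17:26512509-26512737) the values were 20.5 and 21.97 with Veh and 99.6 and 47.6 with KLA (log2 fold change 1.79, SE 0.51, adjusted p = 0.0402), a call lost with TMM scaling (adjusted p = 0.0578). In these 3 peaks both KLA libraries were above both Veh libraries. The promoter peak over the TSS (chr17:26508188-26508760) also had both KLA libraries higher, with 86.5 and 63.6 tags against 105 and 113, but did not pass the test (log2 fold change 0.54, SE 0.33, adjusted p = 0.285). At the strongest peak, -25.52 kb, the groups overlapped, with 157 and 123 tags with Veh and 161 and 133 with KLA (log2 fold change 0.08, SE 0.29, adjusted p = 0.875).

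Dusp2 encodes a nuclear phosphatase of activated leukocytes and had 3 ERK1 peaks. At -12.97 kb ERK1 tags were 4.72 and 0 with Veh and 47.9 and 21.8 with KLA, a log2 fold change of 3.97 (SE 1.03, adjusted p = 0.0292). Its strongest peak, at the promoter (chr2:127335829-127336155), had 58.2 and 45.1 tags with Veh and 66.4 and 80.3 with KLA, with no overlap of the groups but no call (log2 fold change 0.51, adjusted p = 0.385). Dusp2 thus combined a distal site that appeared with KLA and a promoter bound before it.

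Dusp4, a nuclear phosphatase of ERK, held the peak called lower. In its intron at +7.70 kb (chr8:34815198-34815431) ERK1 tags were 62.9 and 24.3 with Veh and 3.69 and 8.17 with KLA, a log2 fold change of -2.84 (SE 0.76, adjusted p = 0.0325). Of its 11 peaks, 3 had a log2 fold change above 0, and its summed tags were 412 and 338 with Veh and 305 and 321 with KLA. The strongest Dusp4 peak, at -44.68 kb, had 66.1 and 78.6 tags with Veh and 38.1 and 87.1 with KLA (log2 fold change -0.22, adjusted p = 0.757), the KLA libraries standing on either side of the Veh libraries. Dusp5, an ERK-specific nuclear phosphatase, had 3 peaks and none called. Its strongest, at +35.11 kb, had 37.8 and 65.9 tags with Veh and 34.4 and 46.3 with KLA (log2 fold change -0.38, adjusted p = 0.609), and its promoter peak over the CArG boxes had 14.2 and 41.6 against 62.7 and 31.3, so the groups overlapped at both.

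Dusp6, the cytoplasmic phosphatase of ERK, had 18 peaks that moved in both directions, 9 of them with a log2 fold change above 0. Weak peaks at +172.74 kb (chr10:99435861-99436080) and -72.33 kb (chr10:99190791-99191009, intronic) were called higher. The first had 0 and 3.47 tags with Veh and 19.7 and 27.2 with KLA (log2 fold change 3.48, SE 0.98, adjusted p = 0.0396), and the second 0 and 2.31 against 22.1 and 14.97 (3.67, SE 1.05, adjusted p = 0.0409). Both calls were lost with TMM scaling (adjusted p = 0.0522 and 0.0528). The strongest Dusp6 peak, at -12.24 kb, had 48.8 and 52.0 tags with Veh and 120 and 78.9 with KLA and did not pass (log2 fold change 0.98, SE 0.37, adjusted p = 0.0977). The promoter peak at -0.24 kb went the other way, with 77.1 and 54.3 tags with Veh and 32.0 and 32.7 with KLA, also without a call (log2 fold change -1.01, adjusted p = 0.14).

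Spred1 encodes a membrane-bound inhibitor of RAS and RAF signalling, and its locus held the ERK1 sites with 0 tags in both Veh libraries. At -40.53 kb the KLA libraries had 32.0 and 51.7 tags, at least 10.2-fold above the level that 3 tags in each Veh library would give (adjusted p = 0.00825). At -33.37 kb (chr2:117087602-117087809) they had 23.4 and 32.7 tags, at least 6.84-fold higher (adjusted p = 0.0122). With 0 tags with Veh, both sites could be listed and pass the minimum of 4 tags only through the KLA libraries. Their direction was thus set in part by that choice, which the p-values do not take into account. In an intron at +25.14 kb (chr2:117146095-117146319) tags were 4.72 and 17.3 with Veh and 72.5 and 51.7 with KLA, a log2 fold change of 2.41 (SE 0.61, adjusted p = 0.0269). By contrast the strongest Spred1 peak, at -101.76 kb, had 157 and 91.3 tags with Veh and 108 and 114 with KLA, within the spread of the replicates (log2 fold change -0.15, SE 0.34, adjusted p = 0.785). Spry2, a Sprouty inhibitor of receptor tyrosine kinase signalling, had 4 weak peaks and no call. Its strongest, at +117.35 kb, had 14.2 and 20.8 tags with Veh and 36.9 and 20.4 with KLA, and the groups overlapped (log2 fold change 0.70, adjusted p = 0.467).

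Among the immediate early genes, called ERK1 gains were found at Egr2. At -98.44 kb (chr10:67439327-67439529) tags were 1.57 and 15.03 with Veh and 59.0 and 57.2 with KLA (log2 fold change 2.68, SE 0.70, adjusted p = 0.0301). At -13.66 kb they were 4.72 and 3.47 against 22.1 and 34.0 (log2 fold change 2.75, SE 0.78, adjusted p = 0.0409), a call lost with TMM scaling (adjusted p = 0.0541). Both KLA libraries exceeded both Veh libraries at these 2 sites, whereas at the strongest Egr2 peak, -54.30 kb, the values 73.9 and 28.9 with Veh and 46.7 and 19.1 with KLA overlapped (log2 fold change -0.61, adjusted p = 0.499). Egr1 had 1 ERK1 peak, at -4.81 kb, where the Veh libraries lay on either side of the KLA libraries (18.9 and 74.0 against 52.9 and 44.9, log2 fold change 0.04, SE 0.56, adjusted p = 0.966). Ier3 had 2 peaks, the stronger at -8.33 kb with 89.7 and 74.0 tags with Veh and 101 and 113 with KLA, higher in both KLA libraries without passing the test (log2 fold change 0.39, adjusted p = 0.43).

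**Figure D2:**
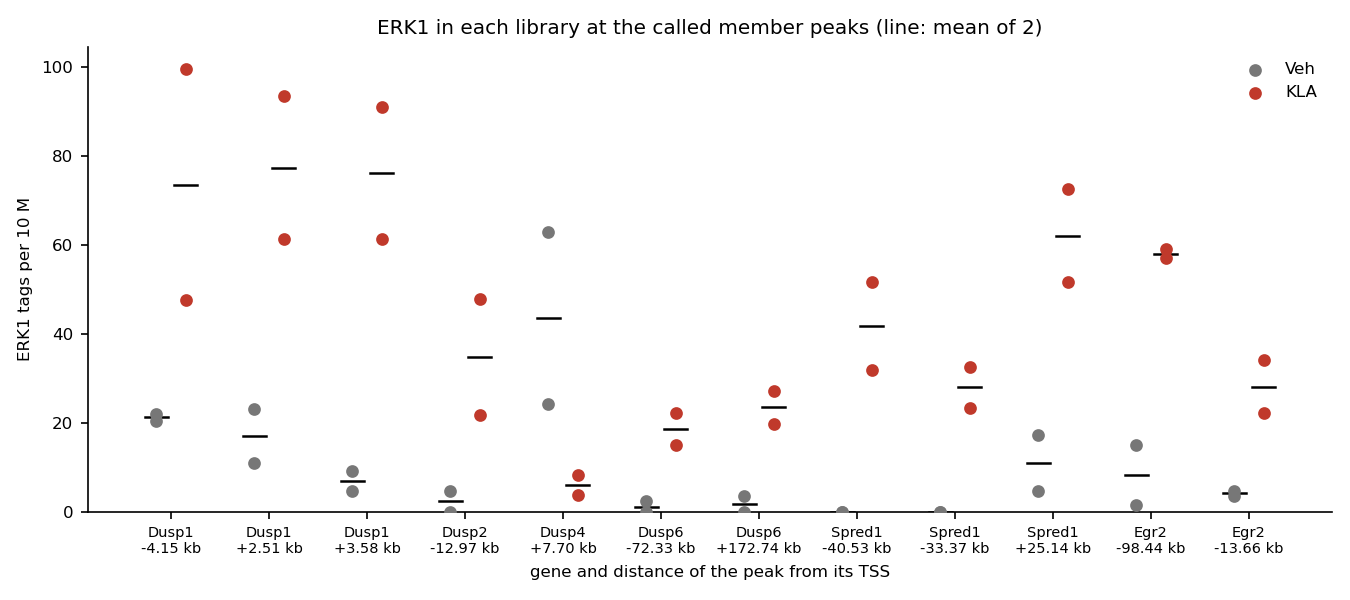
ERK1 tags per 10 M (y axis) at the 12 called peaks, with 1 point per library and a line at the mean of the 2 libraries of each group. With Veh the 11 gained peaks hold 0 to 23.1 tags and with KLA 14.97 to 99.6, and the Dusp4 peak at +7.70 kb is the one that fell.

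These ERK1 calls rest on few libraries. Without KLA replicate 1 there were 3 calls, without KLA replicate 2 there were 5, without Veh replicate 1 there were 9 and without Veh replicate 2 there were 12. Of the 74 peaks, 12 (16.2%) lay within 2 kb of a TSS, against 23.2% of all ERK1 peaks. AP-1 matches within 150 bp of the centre were found in 29 of 74 (39.2%), against 26.1% of all ERK1 peaks, and in 5 of the 11 gained peaks, against 27.8% of all gained ERK1 peaks. The CArG box was in 3 of 74 (4.05% against 1.82%), the ETS core CCGGAA in 4 (5.41% against 9.32%), the NFκB motif in 4 (5.41% against 6.31%), the cyclic AMP response element in 1 (1.35% against 1.03%) and the EGR motif GCGNGGGCG in 1 (1.35% against 2.22%). Matches are letters in the sequence and not shown sites of binding.

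At the 11 gained ERK1 peaks the other factors were compared at their own peak within 500 bp. p300 had such a peak at 10 of the 11 and was called higher with KLA at 7 (6 with TMM scaling), where 88.2% of all 2884 gained ERK1 peaks had one and 80.0% had one called higher. HDAC3 had a peak at 9 and was higher at 6 (6), against 83.8% and 67.4%, and NCoR at 8 and higher at 6 (6), against 85.1% and 62.9%. p65 had one at 8 and was higher at 7 (4), against 85.2% and 82.6%, and PGC1β at 7 and higher at 5 (5), against 68.6% and 58.0%. Fosl2 had one at 6 and was higher at 2 (3), against 69.4% and 43.6%, and PU.1 at 4 and higher at 3 (4), against 48.2% and 25.8%. These counts rest on 11 sites, and their differences from the shares of all gained peaks were not tested. None was called lower at these sites. The most complete gains were at Dusp2 and Spred1.

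At Dusp2, near -12.97 kb, NCoR tags were 5.97 and 15.3 with Veh and 112 and 108 with KLA (log2 fold change 3.35). p65 went from 4.38 and 8.39 to 168 and 148 (4.62), and Fosl2 from 5.64 and 3.15 to 128 and 237 (5.36). These and HDAC3 (3.47), PU.1 (2.50), PGC1β (3.05) and p300 (4.51) were each called higher, so all 8 proteins rose at 1 element.

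At Spred1, near -40.53 kb, p65 tags were 7.004 and 14.0 with Veh and 308 and 334 with KLA, a log2 fold change of 4.93 (SE 0.31, adjusted p = 8.99e-07). Values of PU.1 were 8.27 and 8.71 with Veh and 110 and 93.0 with KLA (3.57), and of p300 7.52 and 20.4 against 217 and 232 (4.01). NCoR had 3.58 and 25.9 against 78.6 and 104 (2.62). A site with little sign of any of these proteins before KLA was thus bound by them after it.

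Near the Egr2 peak at -13.66 kb, p65 had 0 and 0 tags with Veh and 57.4 and 56.8 with KLA, at least 21.1-fold higher. This p65 peak, too, could be listed only through the KLA libraries. NCoR had 1.19 and 0 tags against 31.6 and 40.1, PGC1β 1.18 and 0 against 34.95 and 25.7, and p300 1.88 and 1.31 against 70.6 and 52.4. The Egr2 element, like that of Spred1, was nearly unbound with Veh.

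The Dusp1 peak at +3.58 kb differed from these. No other factor was called there: HDAC3 had 16.7 and 22.7 tags with Veh and 32.2 and 42.1 with KLA, and p300 21.3 and 15.8 against 39.4 and 29.2 (adjusted p = 0.0512). At the Dusp1 peak at -4.15 kb, HDAC3 rose from 30.6 and 33.7 to 73.3 and 121 tags and p300 from 33.8 and 28.9 to 126 and 130.

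At the Dusp4 intron peak at +7.70 kb that lost ERK1, other factors fell too. NCoR tags were 118 and 117 with Veh and 11.3 and 18.0 with KLA (log2 fold change -2.98). HDAC3 had 105 and 108 against 25.8 and 47.4 (-1.62), PU.1 38.3 and 40.5 against 13.7 and 15.3 (-1.43), and PGC1β 33.5 and 38.1 against 3.28 and 6.86 (-2.70). All 4 were called lower, and their libraries did not overlap between groups.

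**Figure D3:**
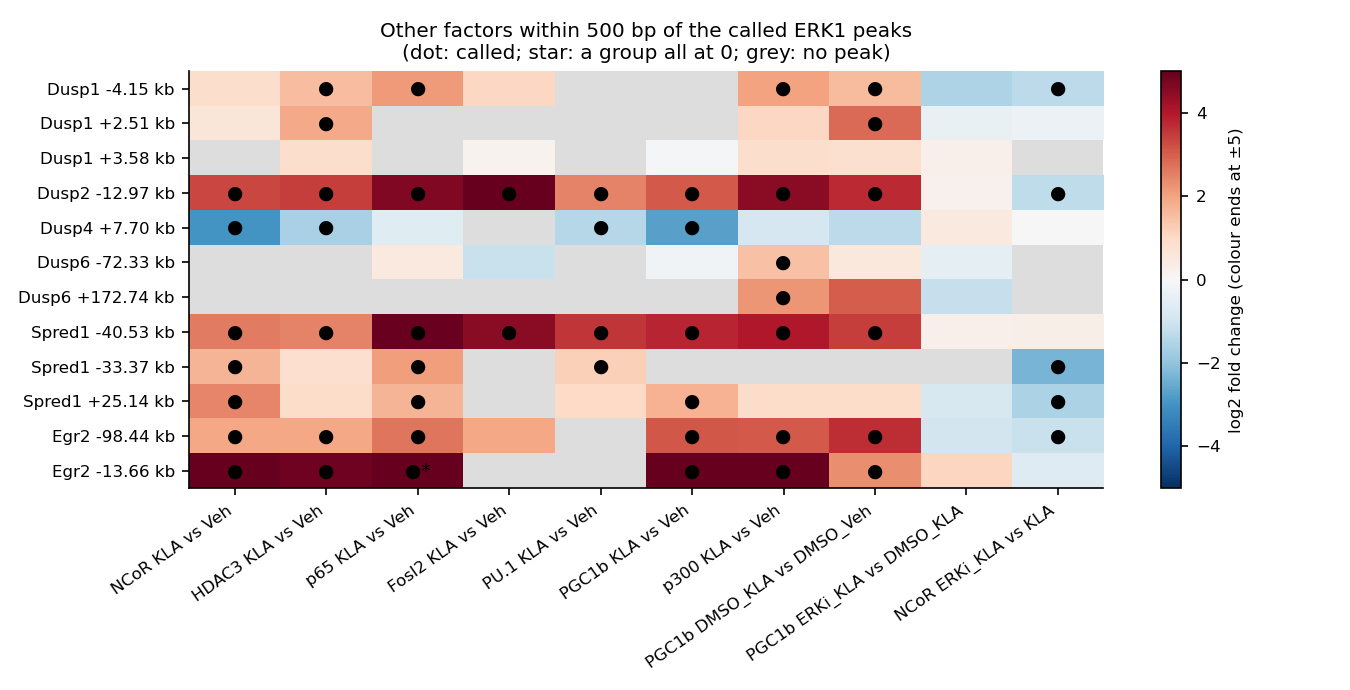
Log2 fold change (colour, from lower in blue to higher in red, ends at -5 and 5) of 10 comparisons (columns) at the peak nearest to each of the 12 called ERK1 peaks (rows). Dots mark calls, stars a group with 0 tags in both libraries, and grey no peak within 500 bp; the Dusp2 and Spred1 -40.53 kb rows are red across the KLA comparisons, and the Dusp4 row is blue in those of them with a peak.

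Across all their peaks, the loci fell into different patterns for each factor. For NCoR, 33 of 149 peaks (22.1%) were higher with KLA and 26 (17.4%) lower, against 23.4% and 16.7% of all NCoR peaks. Dusp2 had all 7 of its peaks higher, with a median log2 fold change of 2.76, and at its promoter (-0.70 kb) NCoR rose from 69.3 and 65.9 to 209 and 174 tags (log2 fold change 1.5002, SE 0.23, adjusted p = 0.000613). Spred1 had 10 of 27 higher and 1 lower. Dusp6 went the other way, with 12 of 30 lower and 4 higher, and its strongest NCoR peak at +5.70 kb fell from 350 and 415 to 117 and 142 tags (log2 fold change -1.56, SE 0.19, adjusted p = 0.000234). The strongest NCoR peak of Dusp4, at -62.75 kb, likewise went from 306 and 275 to 95.6 and 122 tags (log2 fold change -1.41, SE 0.20, adjusted p = 0.000464).

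For HDAC3, the catalytic partner of NCoR, 43 of 137 peaks (31.4%) were higher and 14 (10.2%) lower, against 27.5% and 11.3% of all, and 42 and 20 with TMM scaling. The 2 KLA libraries differed as wholes: 31.2% of 17.1 M tags lay in peaks in replicate 1 and 46.5% of 5.69 M in replicate 2. All 8 Dusp2 peaks and 11 of 22 Spred1 peaks were higher, and 7 of 26 Dusp6 peaks were lower. At the Dusp2 promoter HDAC3 had 116 and 106 tags with Veh and 185 and 423 with KLA (log2 fold change 1.43, SE 0.37), and at Dusp6 +5.70 kb 396 and 340 against 119 and 205 (-1.21, SE 0.39). At Egr2 -47.83 kb HDAC3 rose from 50.2 and 57.5 to 90.3 and 137 (1.05), a call lost with TMM scaling. The KLA libraries differed widely from each other at Dusp2, and each of these 3 calls was kept in 1 of 4 fits that left out a library.

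With library totals each of the 10 genes had at least 2 p65 peaks called higher. Of 137 p65 peaks, 85 (62.0%) were higher and 8 (5.84%) lower, against 57% and 5.43% of all, and 38 and 23 with TMM scaling. The strongest p65 peak rose at 7 genes. At Dusp1 -25.52 kb tags were 67.4 and 83.0 with Veh and 357 and 346 with KLA (log2 fold change 2.22, and 1.01 with TMM scaling, called in both). At the Dusp2 promoter they were 36.8 and 61.5 against 232 and 298 (2.44), at Dusp4 -41.64 kb 17.5 and 22.4 against 117 and 133 (2.64) and at Egr2 -47.83 kb 11.4 and 16.8 against 76.1 and 73.9 (2.41). Besides Spred1 -40.51 kb, named above, the others were Ier3 -0.17 kb, with 83.2 and 109 against 327 and 378 (1.88), and Spry2 +81.40 kb, with 7.004 and 21.4 against 52.8 and 49.3 (1.85), both no longer called with TMM scaling. ERK1 at the same Dusp1 element at -25.52 kb did not change, and neither Fosl2, with 377 and 339 tags with Veh and 503 and 752 with KLA, nor PU.1, with 186 and 191 against 183 and 178, was called there.

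p300 rose widely: 92 of 174 peaks (52.9%) were higher and 7 (4.02%) lower, against 42.1% and 12.9% of all, with medians of 1.11 and 0.65 on the log2 scale. With TMM scaling 74 were higher and 20 lower, and the share of all peaks under that scaling is not given. All 8 Dusp2 peaks, 16 of 26 at Spred1, 16 of 25 at Dusp1 and 9 of 12 at Egr2 were higher. Among the strongest peaks, the Dusp2 promoter went from 43.9 and 31.5 to 178 and 194 tags (2.30, SE 0.21) and Dusp6 +162.18 kb from 68.9 and 73.6 to 222 and 274 (1.80, SE 0.17), both called under either scaling.

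Fosl2, PU.1 and PGC1β changed at fewer peaks. For Fosl2, 7 of 86 (8.14%) were higher and 2 (2.33%) lower, against 11.4% and 4.19% of all. These counts were 15 and 7 with TMM scaling, and 0 without either Veh library. Of the strongest Fosl2 peaks the Dusp2 one, named above, was called. For PU.1, 8 of 109 (7.34%) were higher and 17 (15.6%) lower, against 4.53% and 21.7%, but 14 and 4 with TMM scaling, and none of the strongest was called. For PGC1β with plain Veh and KLA, 25 of 116 (21.6%) were higher and 3 (2.59%) lower, against 16.4% and 6.35%. Its strongest Dusp2 peak, at -29.86 kb, rose from 21.2 and 32.5 to 106 and 54.3 tags (log2 fold change 1.54, SE 0.37, adjusted p = 0.00561). In the DMSO experiment 31 of 137 PGC1β peaks (22.6%) were higher and 1 (0.73%) lower, against 16.4% and 1.23%, and 19 and 4 with TMM scaling.

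The ERK inhibitor addresses whether NCoR and PGC1β binding with KLA depends on ERK activity. By library totals, NCoR tags were lower with ERKi_KLA than with KLA at 68 of 155 peaks (43.9%) and higher at 0, against 48.6% lower and 0.634% higher among all NCoR peaks. The median log2 fold change was -1.11 for the loci and -1.20 for all. With TMM scaling, which sets the bulk of all peaks to no change, 4 were higher and 2 lower, against 3.45% and 3.38% of all. The ERKi_KLA libraries of NCoR carry another date code than those with KLA alone and had less than 16% of tags in peaks, so inhibitor, date code and enrichment of the library cannot be told apart. The share of member peaks that fell was thus near that of NCoR peaks in general.

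Within the loci the fall was uneven. It was called at 12 of 16 Dusp1 peaks, 5 of 8 at Dusp2, 10 of 19 at Dusp4, 12 of 30 at Dusp6, 6 of 14 at Spry2, 12 of 28 at Spred1, 4 of 10 at Egr1 and 7 of 14 at Egr2, and at 0 of 10 at Dusp5 and 0 of 6 at Ier3. Summed NCoR tags of Dusp1 were 1608 and 1679 with KLA and 691 and 787 with ERKi_KLA, while those of Ier3 were 548 and 538 against 414 and 396. The ratio of ERKi_KLA to KLA ranged from 0.414 at Dusp2 to 0.747 at Ier3, and both inhibitor libraries were below both KLA libraries at all 10 genes. How many of all genes separate in this way was not counted, and the median log2 fold change of all NCoR peaks was -1.20. Whether the separation is particular to these loci is thus not shown.

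At the strongest NCoR peak of each phosphatase gene, the values with KLA and ERKi_KLA were as follows. Dusp1 at -25.56 kb had 270 and 353 tags against 127 and 143, a log2 fold change of -1.21 (SE 0.21, adjusted p = 0.000584) that was -0.04 with TMM scaling. Dusp4 at -62.74 kb had 99.6 and 131 against 44.8 and 29.3 (-1.64, called, and -0.48 with TMM scaling). Dusp2 at -0.14 kb had 200 and 152 against 107 and 93.9 (-0.81), and Dusp6 at +5.70 kb 117 and 142 against 73.5 and 68.1 (-0.87). Dusp5 at +35.11 kb had the smallest difference of the phosphatase genes, 56.7 and 52.6 against 44.8 and 41.4 (-0.34). These last 3 were not called, and their log2 fold changes were above 0 with TMM scaling (0.36, 0.29 and 0.82). Another Dusp2 promoter peak, at -0.69 kb, had 220 and 189 against 74.4 and 70.7 and was called lower with library totals. With TMM scaling 0 Dusp2 peaks were called.

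Of the other genes, Spry2 had the largest fall. At +81.40 kb its NCoR tags went from 92.3 and 87.8 to 22.8 and 12.1, a log2 fold change of -2.36, called, and -1.20 with TMM scaling (adjusted p = 0.0502). Egr2 at -47.82 kb had 139 and 127 against 41.4 and 49.99 (-1.53, called, and -0.37 with TMM scaling). Spred1 at -101.77 kb had 183 and 192 against 119 and 94.8 (-0.81), Egr1 at -4.81 kb 215 and 176 against 133 and 122 (-0.62), and Ier3 at -8.37 kb 248 and 220 against 196 and 159 (-0.40), none of them called and all above 0 with TMM scaling (0.35, 0.55 and 0.77). The strongest Spry2 peak thus had the lowest log2 fold change of the 10 under both scalings, with a call that depends on the scaling.

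NCoR values of the ERKi_KLA libraries were unlike at neighbouring Spred1 elements, but neither scaling called a change at both. At the peak near -33.37 kb tags went from 65.6 and 58.8 with KLA to 14.4 and 10.3 with ERKi_KLA (log2 fold change -2.32, called, and -1.16 and not called with TMM scaling). Near -40.53 kb tags were 81.0 and 104 with KLA and 135 and 89.6 with ERKi_KLA, so the groups overlapped (0.28, not called). With TMM scaling edgeR called this peak higher (1.44, adjusted p = 0.0191). The Dusp2 element near -12.97 kb had 138 and 137 against 59.2 and 56.0 (-1.25, and -0.09 with TMM scaling), so it moved with the bulk. Of the 8 gained ERK1 peaks with an NCoR peak in this table, 5 were called lower with library totals (55.5% of all 2884 gained ERK1 peaks had a called fall), and with TMM scaling 1 was called higher and none lower.

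PGC1β was not called changed by the inhibitor at any of the 137 peaks, against 0.108% higher and 0.178% lower among all 53474 peaks. By edgeR 25 of the 137 had an unadjusted p under 0.05, and DESeq2 called 1 higher and 1 lower. The median log2 fold change was -0.27, against -0.20 over all peaks. All 6 of these libraries carry 1 date code, and 26.6 to 28.1% of tags lay in peaks with DMSO_KLA and 23.4 to 24.7% with ERKi_KLA. The DMSO_KLA libraries are also those set against DMSO_Veh above.

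At Dusp1 -25.59 kb PGC1β had 294 and 228 tags with DMSO_KLA and 264 and 243 with ERKi_KLA (log2 fold change -0.04), at Dusp2 -29.86 kb 128 and 81.9 against 136 and 114 (0.26) and at Dusp5 -0.34 kb 69.1 and 84.8 against 113 and 58.2. Dusp4 +8.73 kb was higher in both inhibitor libraries, 86.8 and 68.5 against 108 and 155 (0.77, SE 0.35, adjusted p = 0.312), and Dusp6 -72.27 kb lower in both, 154 and 147 against 102 and 114 (-0.48, SE 0.31, adjusted p = 0.495). Neither passed the test.

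At Spry2 +117.37 kb PGC1β had 49.3 and 61.0 against 57.9 and 33.6 tags, and at Spred1 -101.72 kb 253 and 204 against 221 and 250 (log2 fold change 0.05). The immediate early genes had 41.4 and 72.9 against 79.8 and 60.8 at Egr1 -4.81 kb, 120 and 107 against 120 and 107 at Egr2 -1.67 kb, and 166 and 149 against 183 and 154 at Ier3 -8.28 kb (0.10). The groups overlapped at each of these 5 peaks. Summed over all peaks of a gene, both ERKi_KLA libraries were below both DMSO_KLA libraries at Dusp1, Dusp6, Spry2, Spred1 and Ier3 and above them at Dusp2 and Dusp5, and the ratio ranged from 0.729 at Dusp6 to 1.22 at Egr1. For Spry2 the sums were 397 and 347 with DMSO_KLA and 297 and 279 with ERKi_KLA, for Spred1 1824 and 1774 against 1546 and 1567, and for Dusp2 361 and 347 against 433 and 427. These sums were scaled by library totals, and the part of the lower share of tags in peaks with ERKi_KLA was not tested. How many of all genes separate in this way was not counted, so the sums do not show a response of single genes. At the gained elements PGC1β was likewise not called: near Spred1 -40.53 kb it had 107 and 113 tags with DMSO_KLA and 122 and 140 with ERKi_KLA, and near Dusp1 -4.15 kb 120 and 56.6 against 26.6 and 33.6 (-1.53, adjusted p = 0.177).

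**Figure D4:**
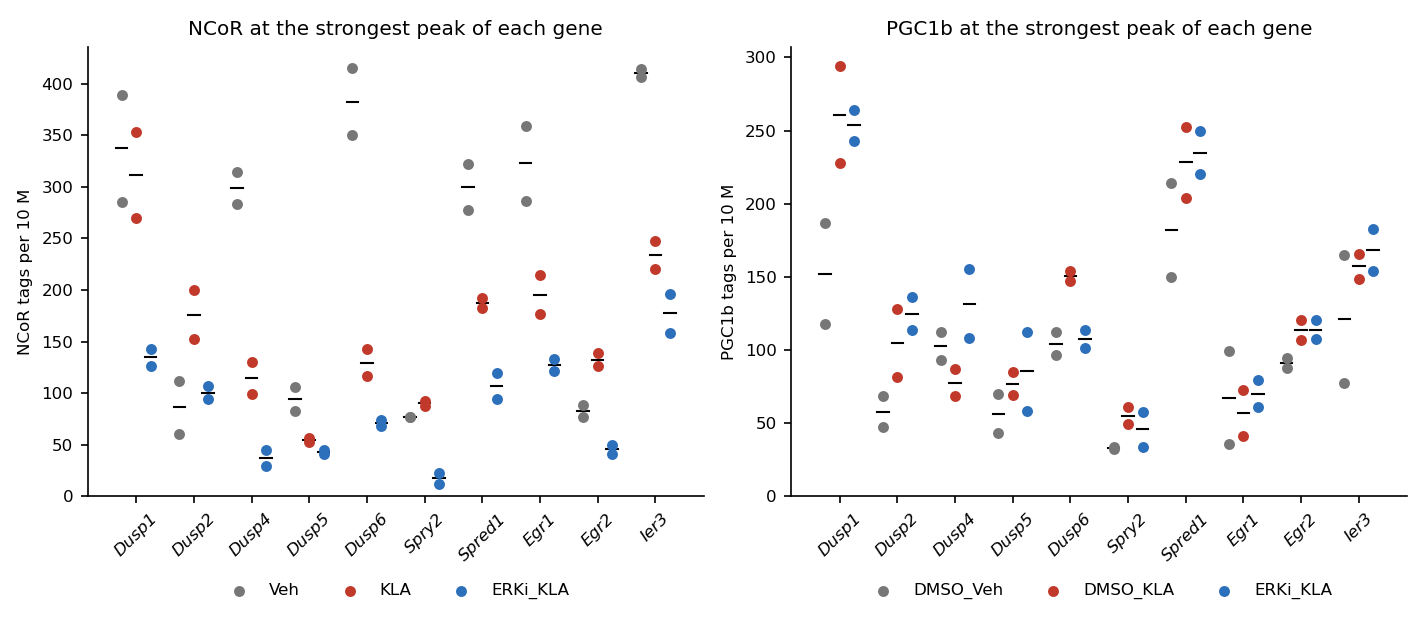
Tags per 10 M (y axis) at the strongest peak of each of the 10 genes, for NCoR with Veh, KLA and ERKi_KLA and for PGC1β with DMSO_Veh, DMSO_KLA and ERKi_KLA. Each point is 1 library. The ERKi_KLA points of NCoR lie below those of KLA at all 10 peaks, while for PGC1β the 2 groups overlap at 8 of the 10. The share of all peaks that separate in this way was not counted.

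Other genes of the pathway were counted as lists. Of 17 genes of the ERK cascade, 13 had an ERK1 peak, and 5 of their 48 peaks (10.4%) were higher with KLA and 2 lower (median log2 fold change 0.02). Of 14 further phosphatase, Sprouty and feedback genes, 9 had ERK1 peaks, with 4 of 42 (9.52%) higher and 1 lower (-0.34). Other immediate early genes had 10 of 140 (7.14%) higher and 6 lower (0.13), and ETS and SRF factor genes 0 of 33 higher and 3 lower (0.24). NCoR with the inhibitor was lower at 61 of 126, 26 of 72, 102 of 233 and 44 of 84 peaks of these lists in turn, shares of 36.1 to 52.4% beside the 48.6% of all peaks. PGC1β with the inhibitor was higher at 0 of 111, 0 of 70, 1 of 214 and 1 of 83 of their peaks and lower at 1, 2, 0 and 0. For ERK1 the share of all peaks was 10.3% higher and 2.53% lower, and that of the 10 loci 14.9% higher, or 9.46% with TMM scaling.

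In osteoclast differentiation, 1 of 36 ERK1 peaks (2.78%) was higher at day 4 than at day 0 and 0 lower, against 2.33% and 0.0267% of all 14957. It lies at Spred1 -84.45 kb, where tags were 2.58 and 3.15 at day 0 and 28.003 and 26.3 at day 4 (log2 fold change 3.19, SE 0.85, adjusted p = 0.049), and was not called with TMM scaling (adjusted p = 0.278). Dusp2 had no ERK1 peak in this table. One of the day 4 libraries carries 2 replicate numbers in its labels, 2 in the title and 3 in the description, and a date that differs from its partner's. ERK1 tags summed over osteoclast marker regions were 423 and 434 at day 0 and 778 and 589 at day 4, those over macrophage marker regions 783 and 926 against 1839 and 1152, and those over B cell marker regions 59.4 and 60.9 against 94.9 and 121. These 3 lists were higher in both day 4 libraries than in both day 0 libraries, while the T cell list overlapped, and their part in the result was not tested.

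p300 was higher at day 4 at 31 of 53 peaks (58.5%) and lower at 0, against 62.2% and 0.248% of all, and at 4 and 2 with TMM scaling. The strongest p300 peak was called at 8 genes with library totals and at none with TMM scaling. Dusp1 -25.60 kb had 51.9 and 87.3 tags at day 0 and 149 and 169 at day 4 (log2 fold change 1.24), Dusp4 -44.67 kb 14.1 and 12.8 against 81.2 and 74.9 (2.51) and Spred1 -101.81 kb 12.3 and 42.6 against 119 and 93.0 (2.14). The others were Egr2 -47.78 kb with 3.52 and 10.6 against 36.2 and 38.6 (2.60), Dusp2 -0.70 kb with 2.64 and 17.0 against 22.5 and 46.5 (2.10), Egr1 -4.82 kb with 18.5 and 23.4 against 65.5 and 51.0 (1.51), Ier3 -8.33 kb with 44.0 and 66.0 against 134 and 138 (1.35) and Dusp5 +35.13 kb with 19.3 and 25.55 against 47.9 and 55.6 (1.24). Day 4 exceeded day 0 at each; the share of all tags in peaks was also larger at day 4, and its part in the result was not tested. Near the Spred1 element at -40.53 kb p300 had 4.40 and 0 tags at day 0 and 95.8 and 120 at day 4 (5.10, and 3.51 with TMM scaling), a gain under both scalings at the element that also gained p300 with KLA.

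With KLA, H3K27ac rose at the Dusp2 promoter in the WT, NKO, DMSO and both Pgc1b comparisons, while regions of Spry2 and Dusp6 fell in DMSO-treated cells. In WT (NCoR flox/flox) cells 5 of 32 tested regions (15.6%) were higher with KLA and 0 lower, against 6.49% and 3.72% of all regions, and 8 of the 40 regions were below the minimum of 16 tags. At the Dusp2 promoter, -0.69 kb, H3K27ac was 22.7 and 17.8 with Veh and 58.5 and 67.6 with KLA (log2 fold change 1.64). Dusp2 -0.17 kb had 20.8 and 23.4 against 45.9 and 51.0 (1.12, not called with TMM scaling) and Dusp4 -0.48 kb 9.46 and 2.55 against 22.6 and 22.7 (1.97, SE 0.47). The Ier3 promoter had 22.7 and 17.8 against 59.7 and 71.7 (1.701), and the Ier3 region at -8.30 kb 39.7 and 33.1 against 67.3 and 94.4 (1.15, SE 0.25).

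In NKO cells 1 region (3.12%) was higher with KLA and 2 (6.25%) lower, against 2.75% and 7.96% of all, and 3 and 2 with TMM scaling. The Dusp2 region at -0.69 kb rose here too, from 14.0 and 12.2 to 31.3 and 37.5 (1.39), while Dusp6 +5.68 kb fell from 24.3 and 36.6 to 9.03 and 9.72 (-1.705) and Egr2 -0.40 kb from 44.98 and 36.0 to 13.3 and 14.6 (-1.53). NKO cells exceeded WT cells with Veh at Dusp4 -0.48 kb, 27.3 and 29.6 against 9.46 and 2.55 (2.29, SE 0.46, adjusted p = 0.00374), where 1% of all regions differed. With KLA 0 of 32 differed, against 0.789% of all, with 7 at an unadjusted p under 0.05 by edgeR and 0 called by DESeq2. The KLA response differed between genotypes at 1 region, Ier3 -8.30 kb (-1.38, SE 0.36, adjusted p = 0.0438, against 0.697% of all), and this was not called with TMM scaling.

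HDAC3 inhibition raised H3K27ac at many of these loci. In WT cells with DMSO, KLA raised 2 of 38 regions (5.26%) and lowered 13 (34.2%), against 6.73% and 28.1% of all, and 4 and 7 with TMM scaling. The Dusp2 promoter rose from 146 and 144 to 381 and 328 (1.29, SE 0.21) and Ier3 -8.39 kb from 95.5 and 77.6 to 193 and 183 (1.12, SE 0.22). Against DMSO_KLA, RGFP966_KLA was higher at 24 of 38 regions (63.2%) and lower at 0, against 26.9% and 9.53% of all regions, with a median log2 fold change of 1.17 against 0.39. With TMM scaling it was higher at 16 and lower at 0, against 16.1% and 18.9%. The DMSO_KLA libraries serve as control in one of these comparisons and as the treated group in the other.

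The rise with RGFP966 was found at 11 of 12 Spry2 regions, 7 of 9 at Dusp6, 2 of 3 at Dusp5, 2 of 3 at Egr1, 1 of 2 at Dusp4 and 1 of 3 at Egr2. With TMM scaling the calls were 8 at Spry2, 5 at Dusp6, 2 at Dusp5 and 1 at Egr2, and 0 at Egr1 and Dusp4. With either scaling it was found at none of the regions of Dusp1 (1), Dusp2 (1), Spred1 (3) and Ier3 (1). Windows of 1000 bp overlap and share tags at 6 of 13 Spry2, 2 of 3 Egr1 and 2 of 3 Egr2 regions, so these counts are not of separate elements.

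At the Spry2 promoter, -0.57 kb, H3K27ac was 210 and 227 with DMSO_Veh, 77.1 and 86.7 with DMSO_KLA and 213 and 159 with RGFP966_KLA, a log2 fold change of 1.19 against DMSO_KLA (SE 0.22, adjusted p = 6.45e-07) that fell under 2-fold with TMM scaling (0.85). Spry2 +45.01 kb had 53.2 and 41.0, then 14.9 and 5.89, then 42.1 and 42.0 in the same 3 groups (1.95). With the inhibitor both regions thus stood near their level before KLA.

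Dusp5 +35.11 kb had 67.3 and 54.9 with DMSO_Veh, 36.9 and 20.2 with DMSO_KLA and 81.0 and 75.2 with RGFP966_KLA (1.42, SE 0.27, adjusted p = 1.24e-06), though its fall with KLA alone was not called with TMM scaling. Dusp6 +5.77 kb had 140 and 137, then 43.4 and 43.8, then 98.1 and 98.9 (1.18). Called Dusp6 regions had log2 fold changes of 1.18 to 2.50, and 5 Dusp6 regions in place of 7 were called with TMM scaling. The Dusp2 promoter, which rose with KLA, had 255 and 231 with RGFP966_KLA, below both DMSO_KLA libraries but under 2-fold (-0.55), and the Dusp1 region at -25.48 kb had 257 and 236, then 395 and 336, then 367 and 314. Egr1 regions at -1.30 kb and +26.32 kb were higher with RGFP966 (1.08 and 1.17, neither called with TMM scaling) although neither was called lower with KLA.

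In Pgc1b flox/flox cells 1 of 39 regions (2.56%) was higher with KLA and 16 (41.0%) lower, against 5.22% and 25.6% of all, and 3 and 6 with TMM scaling. With LysMCre 1 (2.56%) was higher and 21 (53.8%) lower, against 4.18% and 32.5%, and 3 and 8 with TMM scaling. The Dusp2 promoter rose in both, from 99.9 and 90.1 to 206 and 210 without Cre (1.12, SE 0.14) and from 83.6 and 69.6 to 177 and 203 with Cre (1.31, SE 0.15). The Spry2 promoter fell in both, from 439 and 472 to 206 and 219 (-1.10) and from 353 and 313 to 144 and 120 (-1.34), and Egr2 -0.43 kb from 292 and 289 to 128 and 140 (-1.12) and from 211 and 216 to 90.3 and 85.3 (-1.28), these 4 calls being lost with TMM scaling.

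The Dusp1 region at -25.48 kb separated the genotypes. Without Cre H3K27ac was 380 and 406 with Veh and 405 and 395 with KLA, and the groups overlapped (log2 fold change 0.03, and 0.46 with TMM scaling). With Cre it was 362 and 404 with Veh and 163 and 173 with KLA (-1.19, SE 0.10, adjusted p = 2.1e-31, and -0.57 and under 2-fold with TMM scaling), and the 2 genotypes overlapped with Veh but not with KLA. The difference of the KLA responses was -1.22 (SE 0.13, adjusted p = 6.99e-18), and -1.03 with TMM scaling, called under both and in 8 of 8 fits that left out a library. With KLA, Cre cells were lower than flox cells at this region by edgeR (-1.25, SE 0.10, adjusted p = 4.49e-34, and -0.86 and under 2-fold with TMM scaling). In all, 0 regions of the loci differed between genotypes with Veh (0.397% of all), with 13 at an unadjusted p under 0.05 by edgeR and 0 called by DESeq2, 4 with KLA (7.52%) and 5 in the KLA response (5.37%), all lower with Cre.

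**Figure D5:**
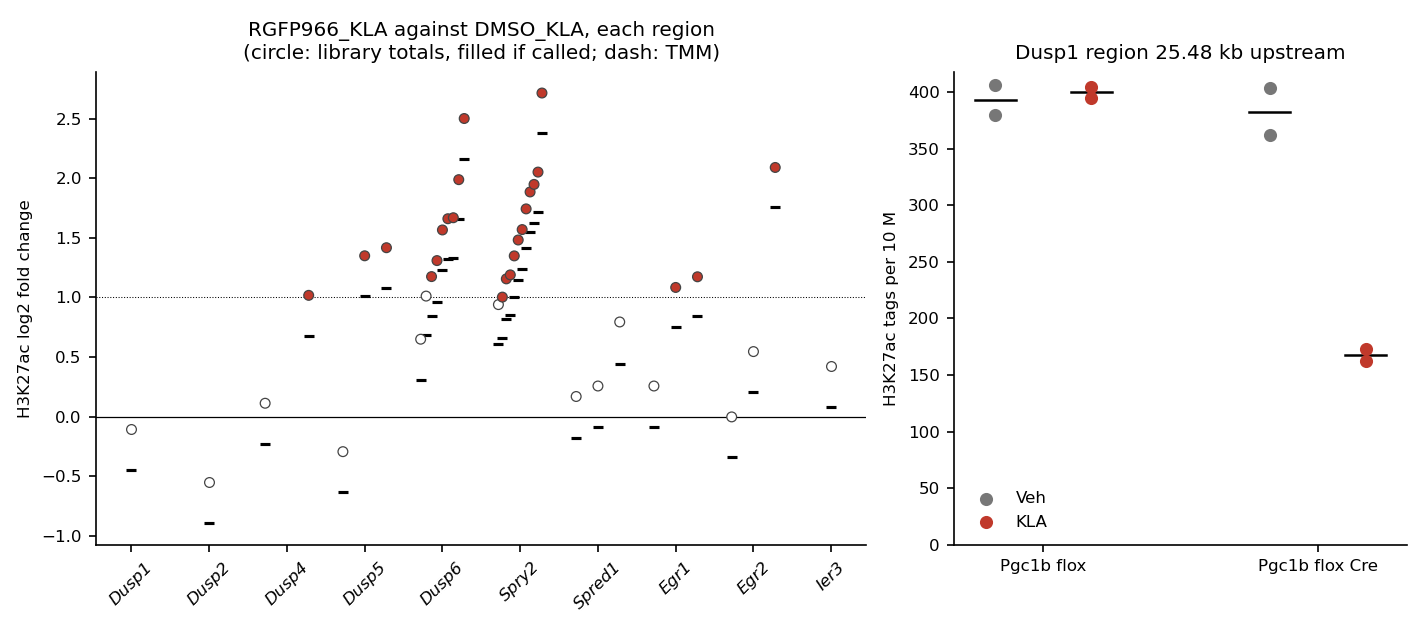
Left, log2 fold change of H3K27ac with RGFP966_KLA against DMSO_KLA at 38 regions by gene, circles with library totals (filled where called) and dashes with TMM scaling, with a dotted line at a 2-fold rise. Right, H3K27ac tags per 10 M at the Dusp1 region at -25.48 kb in the 8 Pgc1b flox/flox libraries; the 2 libraries with Cre and KLA, at 163 and 173, lie below the other 6, at 362 to 406.

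ERK1 peaks of the loci lay within 500 bp of peaks of the other proteins about as often as ERK1 peaks in general. The shares were 82.4% for NCoR (83.3% of all ERK1 peaks), 83.8% for HDAC3 (81.9%), 82.4% for p300 (84.7%), 77.0% for p65 (78.7%), 75.7% for PGC1β (70.4%), 71.6% for Fosl2 (65.1%), 64.9% for PU.1 (72.0%) and 35.1% for H3K27ac regions (43.4%). In the osteoclast experiment 35.1% had an ERK1 peak (36.9%). None of these differences was tested.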

How the data were processed

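Chromatin from 70 of the 100 samples (50 groups of 2) was analysed; the 30 input samples were not analysed here. The authors aligned single-end reads to mm10 with Bowtie2, called peaks with HOMER, kept reproducible ones by IDR, merged them per experiment and deposited raw tag counts per region for each library in 15 tables (74 count columns); tool versions are not given in the sources used here. H3K27ac was counted in windows of 1000 bp in the RGFP966 and Pgc1b tables. Counts were scaled by the header totals to tags per 10 M. Each table was fitted whole with edgeR 4.0.16 (quasi-likelihood F-test, R 4.3.3) on regions with at least 4 tags (factors) or 16 tags (H3K27ac) in at least 1 library, with calls made where the p adjusted by Benjamini-Hochberg was under 0.05 and the change over 2-fold. The SE is the absolute log2 fold change divided by the square root of F. A fold against a group at 0 was computed against 3 tags per library. Alternatives were TMM scaling, DESeq2 1.42.0, no filter, a replicate block and leaving out each library; the fit was tested on simulated data. Sequences came from the mm10 genome and RefSeq promoters and motifs were searched within 150 bp of the peak centre on both strands. Named regions are the strongest of each gene per comparison, called where they pass, and for ERK1 all called regions; the 68 called NCoR regions with the inhibitor are given by gene. Other values at called ERK1 peaks and promoters were chosen after they were seen. The 10 genes and the gene lists were chosen with earlier results of these data known. Replicates with the same number did not deviate together (correlations of -0.027 to 0.088), and no 2 libraries were duplicates.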

Additional observations from a re-analysis of the deposited data

Results flagged for a closer look

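The response of H3K27ac to KLA differed between genotypes at 6 regions of the 10 loci by the interaction term of edgeR, all of them lower in the Cre cells. Of all regions 5.37% differed in the Pgc1b experiment and 0.697% in the NCoR experiment. The median difference of all regions was also below 0, at -0.18 and -0.34. In the Pgc1b experiment the Dusp1 region at -25.48 kb had a difference of -1.22 on the log2 scale (SE 0.13, adjusted p = 6.99e-18), the Spred1 region at -12.83 kb -1.29 (adjusted p = 5.62e-06), the Spry2 region at -103.22 kb -1.21 (adjusted p = 0.00275), the Dusp6 region at +7.30 kb -1.45 (adjusted p = 0.0196) and the Dusp4 region at +71.20 kb -1.16 (adjusted p = 0.0293). The Dusp1, Spred1 and Spry2 differences were also called with TMM scaling (-1.03, -1.10 and -1.03). In the NCoR experiment the Ier3 region at -8.30 kb had a difference of -1.38 (SE 0.36, adjusted p = 0.0438), and -1.03 with TMM scaling (adjusted p = 0.284).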

How the results depend on the processing

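Counts of called member regions moved by over 1.5 times in these cases, with TMM scaling and DESeq2 in turn: p65 61 and 61 of 93, Fosl2 22 and 27 (from 9), NCoR with the inhibitor 6 and 7 (from 68), ERK1 at day 4 0 and 0 (from 1), p300 at day 4 6 and 2 (from 31), NKO with KLA 5 and 5 (from 3), the NKO interaction 0 and 0 (from 1), Pgc1b flox with KLA 9 and 8 (from 17), with Cre 11 and 11 (from 22), Cre against flox with KLA 2 and 1 (from 4) and the Cre interaction 3 and 2 (from 5). DESeq2 called 2 PGC1β regions with the inhibitor, against 0. With the replicate block the counts were 5 for Fosl2, 0 for ERK1 at day 4, 19 for p300 at day 4 and 0 for the NKO interaction, and within 1.5 times in the other 21 comparisons. No filter moved none of the 25 counts.

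Leaving out 1 library gave 3 to 12 calls for ERK1 with KLA, 27 to 73 for NCoR, 20 to 64 for HDAC3, 54 to 99 for p65, 0 to 31 for Fosl2, 24 to 28 for PU.1, 15 to 44 for PGC1β, 68 to 106 for p300, 16 to 22 for PGC1β with DMSO, 29 to 64 for NCoR and 0 to 0 for PGC1β with the inhibitor, 0 to 3 for ERK1 and 5 to 37 for p300 at day 4. For H3K27ac it gave 2 to 5 in WT, 1 to 3 in NKO, 0 to 1 for NKO against WT with Veh, with KLA and for the interaction, 11 to 17 with DMSO, 20 to 26 with RGFP966, 15 to 18 in Pgc1b flox, 21 to 22 with Cre, 4 to 6 for Cre against flox with KLA and 2 to 4 for the interaction. The lowest counts came without KLA replicate 1 for ERK1 (3), either KLA library for NCoR (29 and 27) and for p65 (56 and 54), and either Veh library for HDAC3 (20 and 21), Fosl2 (0) and PGC1β (15).

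Uncalled or scaling-dependent values changed sign. With TMM scaling and DESeq2 in turn these were ERK1 at Dusp1 -0.12 and -0.11 and at Egr1 -0.19 and -0.17, and PGC1β with the inhibitor at Dusp1 0.18 and 0.18. NCoR with the inhibitor became 0.36 and 0.37 at Dusp2, 0.82 and 0.84 at Dusp5, 0.29 and 0.30 at Dusp6, 0.35 and 0.37 at Spred1, 0.55 and 0.56 at Egr1 and 0.77 and 0.78 at Ier3. p300 at day 4 became -0.37 and -0.29 at Dusp1, -0.37 and -0.29 at Dusp5, -0.10 and -0.018 at Egr1 and -0.26 and -0.18 at Ier3. Leaving out 1 library, ERK1 ranged from -0.095 to 0.27 at Dusp1, -0.93 to 0.26 at Dusp4, -0.71 to 0.092 at Dusp5, -0.50 to 0.28 at Spred1, -0.59 to 1.37 at Egr1 and -1.40 to 0.19 at Egr2. PGC1β with the inhibitor ranged from -0.21 to 0.15 at Dusp1, -0.040 to 0.61 at Dusp2, -0.41 to 0.54 at Dusp5, -0.72 to 0.063 at Spry2, -0.10 to 0.21 at Spred1, -0.058 to 0.76 at Egr1, -0.082 to 0.086 at Egr2 and -0.030 to 0.22 at Ier3. The cause of these changes was not tested.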

Other observations

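For each locus the genes whose strongest region had the most similar log2 fold changes were found by Pearson's r over at least 20 of the 25 comparisons, which share libraries and depth. The r and the number of comparisons stand in parentheses. Of the phosphatase genes, Dusp1 was most like Itgam (0.949, 25) and Tfeb (0.940, 25), Dusp2 was most like Dld (0.941, 21) and Fbxw17 (0.915, 21). Dusp4 was most like Gm1587 (0.916, 25) and Pard3bos2 (0.901, 20), Dusp5 was most like 3110039I08Rik (0.924, 20) and AU019990 (0.894, 25), and Dusp6 was most like Aldh3a2 (0.855, 21) and B230303A05Rik (0.803, 20). Of the RAS pathway inhibitors, Spry2 was most like Slc25a18 (0.946, 20) then E030025P04Rik (0.945, 25) and Spred1 was most like Itsn1 (0.976, 25) then Psd4 (0.959, 24). Of the immediate early genes, Egr1 was most like Parvb (0.895, 25) and Pxk (0.888, 25), Egr2 was most like Arf2 (0.933, 25) and Phactr2 (0.911, 25), and Ier3 was most like Creb5 (0.924, 25) and Cox4i2 (0.892, 25). The highest r for Dusp6 was the lowest of the 10 loci.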
